A study of Mus musculus with 2 samples.

Results

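The genes of the cardiac sarcomere and its Z-disc were followed in mouse neonatal ventricular cardiomyocytes (mNVCM) in primary culture, with 2 Affymetrix arrays. The genes were listed by name (48 genes), with earlier results of these arrays known, and every probe set annotated to exactly 1 of them was taken. This gave 86 of the 34945 probe sets with 1 gene, for 47 of the 48 genes and out of 18193 genes in all. The name *Myopn* matched no current or older gene symbol and was not analysed here. Both cultures came from C57BL6/J mice 2 days after birth, were grown for 48 to 72 h, and then spent 1 h in medium with 0.5% fetal bovine serum. Both were exposed to 1 μM doxorubicin (Dox), an anthracycline used against cancer that also injures heart muscle. One culture, hAFS-CMHypo + Dox, had first been given the secretome of human amniotic fluid stem cells for 3 h. This is medium conditioned by these cells, under hypoxia by the methods of the paper. The other culture, Dox, had no pre-incubation. The labels give 6 h of Dox for the hAFS-CMHypo + Dox array and 21 h for the Dox array, both in the sample characteristics and in the treatment protocol of each array. The methods of the paper give the shorter of these for gene expression profiling, and the longer for apoptosis and cell viability. If the labels hold, the pre-incubation and the difference in Dox hours cannot be told apart in any value below. No array of untreated cells was analysed here. With 1 array per condition, the differences below could not be checked on replicates and carry neither an error nor a p-value.

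The sarcomere is the contractile unit of striated muscle. Thick filaments of myosin pull on thin filaments of actin, calcium acts through the troponins and tropomyosin on the thin filament, and titin spans from the Z-disc, where thin filaments are anchored, to the M-band in the middle of the thick filaments. Neonatal heart muscle still expresses some fetal and slow skeletal isoforms beside the adult cardiac ones, and loss of sarcomere proteins is a known part of anthracycline injury to the heart.

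Values are log2 expression after robust multi-array averaging (RMA), and the difference between the arrays is a log2 ratio, hAFS-CMHypo + Dox over Dox. A gene takes the value of whichever of its probe sets had the highest mean, and levels of different genes are not compared, since each probe set binds its transcript with its own strength. As a yardstick within these arrays, the SD between log2 ratios from probe sets of one gene was 0.20, over 5166 genes. This probe-set SD holds no variation between cultures. Both arrays held RNA of heart muscle, since the cardiac genes *Myl2*, *Actc1*, *Tnnt2*, *Myh6* and *Tnni3* had log2 values between 13.84 and 15.05. The highest of all values was 15.05. The atrial light chains *Myl7* (14.59 with hAFS-CMHypo + Dox and 14.64 with Dox) and *Myl4* (14.04 and 14.08) lay in that range too. These values therefore show neither the chamber nor how pure the cultures were. Only *Neb* and *Myot*, which code for nebulin and myotilin, best known from skeletal muscle, had both values below the median of all values (5.10). These 2 genes had 3.20 and 3.37 with hAFS-CMHypo + Dox and 3.22 and 3.38 with Dox, under the 25th percentile (3.80), so their signal may be background only.

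The sarcomere genes lay mostly slightly lower on the hAFS-CMHypo + Dox array than on the Dox array, and the largest difference was in a kinase, not in a filament protein. None of the 47 genes was 2-fold or more higher, against 0.506% of all genes, and 1 was 2-fold or more lower, against 0.214% of all genes. That gene was *Mylk3*, at a log2 ratio of -1.23. At 1.5-fold, 6 members were lower (12.8%, against 1.52% of all genes) and none was higher (2.32% of all genes). Past the probe-set SD, 18 members were lower (38.3%, against 16.3% of all genes) and 1 was higher (18.5% of all genes). A log2 ratio below 0 was found for 40 members (85.1%, against 48.7% of all genes). The median log2 ratio was -0.14 over the members and 0.01 over all genes. Within the probe-set SD were 28 of the 47 members, and 11869 of the 18193 genes in all.

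**Figure D1:**
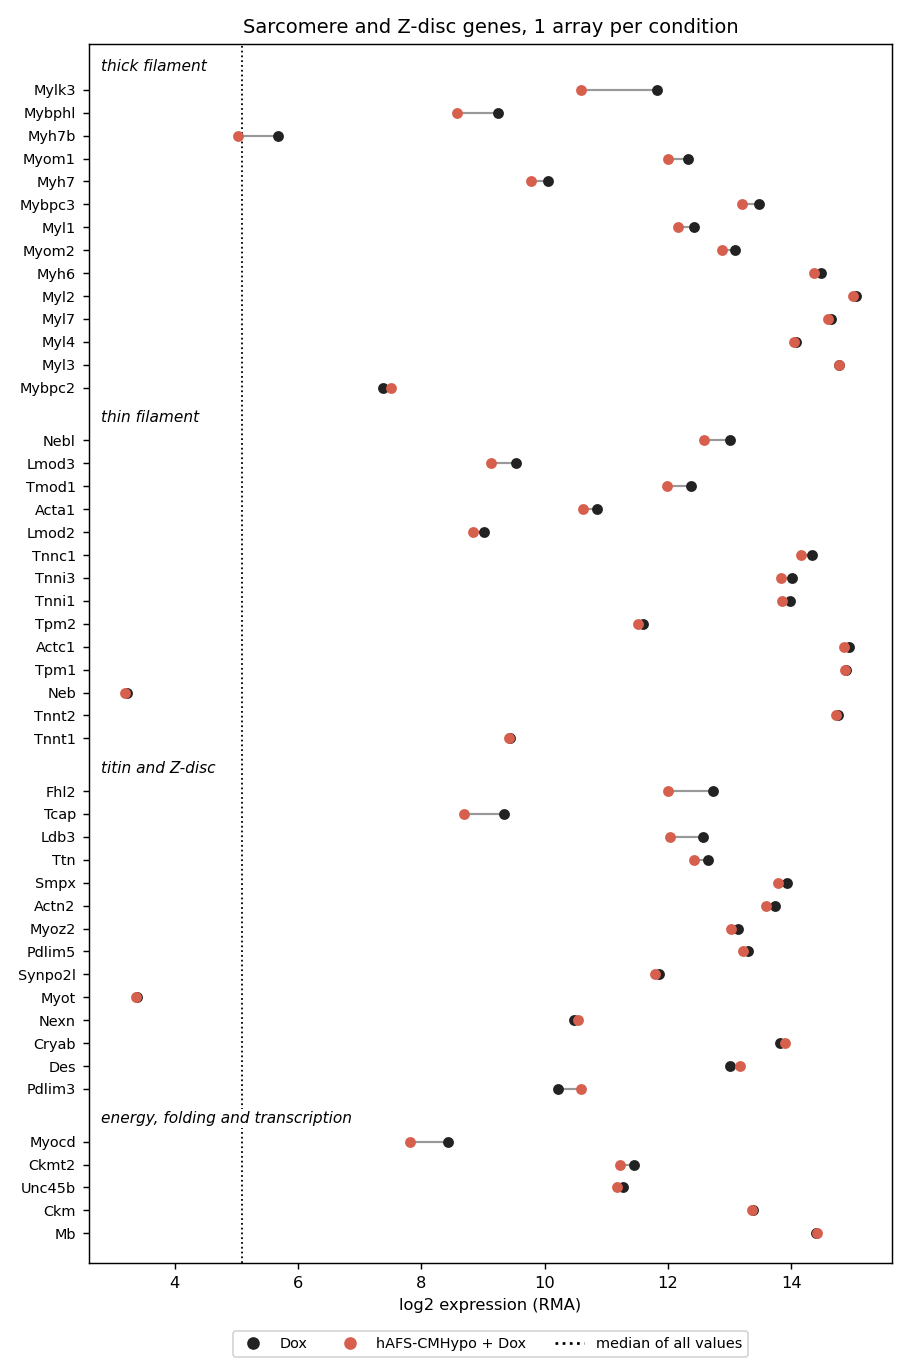
Log2 expression (RMA, horizontal axis) of the 47 measured genes with Dox (dark points) and with hAFS-CMHypo + Dox (red points) from single arrays, grouped by role and ordered by log2 ratio. The red point lies to the left of the dark one for 40 genes, and the gap is widest for *Mylk3*; a dotted line marks 5.10, the median over all values.

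The thick filament group held the motor proteins, their light chains and the proteins that bind or modify them. Of its 14 genes, 8 were lower past the probe-set SD and none was higher by it, against 16.3% and 18.5% of all genes. The median log2 ratio was -0.23. *Mylk3*, the cardiac myosin light chain kinase that phosphorylates the regulatory light chain, had a log2 value of 10.59 with hAFS-CMHypo + Dox and 11.82 with Dox. This is 2.34-fold lower, from its only probe set, and it ranked 20 among the lowest log2 ratios of all genes. *Mybphl*, a relative of the myosin-binding proteins found in atria and conduction tissue, had 8.58 against 9.24, a log2 ratio of -0.66. *Myh7b*, an ancient myosin heavy chain of slow muscle and heart, had 5.02 against 5.68, a log2 ratio of -0.65. The value with hAFS-CMHypo + Dox lay just below the median of all values. These 3 genes were the only ones of the thick filament past 1.5-fold, where 1.52% of all genes were lower and 2.32% higher.

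The main cardiac myosins differed less. *Myh6*, the alpha heavy chain that powers the rodent ventricle, had 14.37 against 14.49, a log2 ratio of -0.12. *Myh7*, the beta heavy chain of fetal and failing heart, had 9.78 against 10.05, a log2 ratio of -0.27. The substrate of the kinase *Mylk3*, the ventricular regulatory light chain *Myl2*, had 14.99 against 15.05, a log2 ratio of -0.05. The other light chains of heart muscle stayed as close, with -0.05 for the atrial regulatory chain *Myl7*, -0.04 for the atrial essential chain *Myl4* and 0.00 for the ventricular essential chain *Myl3*. At its other probe sets *Myl3* had -0.06 (14.10 against 14.16) and -0.13 (13.78 against 13.91). The skeletal essential chain *Myl1* had -0.25 (12.17 against 12.42). The light chains of heart muscle thus lay between -0.05 and 0.00 at their strongest probe sets. *Mylk3*, the kinase of the regulatory chain, stood at the far end of the group.

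Myosin-binding protein C keeps myosin heads close to the thick filament. Its cardiac form *Mybpc3* had 13.20 against 13.47, a log2 ratio of -0.26, and the fast skeletal form *Mybpc2* had 7.50 against 7.37, a log2 ratio of 0.13. The M-band proteins myomesin 1 and 2 link thick filaments to each other. *Myom1* had 12.00 against 12.32, a log2 ratio of -0.31, and *Myom2* had 12.87 against 13.09, a log2 ratio of -0.21. Both were lower past the probe-set SD, *Myom2* only just at this probe set. At other probe sets *Myom2* had -0.35 (11.41 against 11.76), -0.44 (9.47 against 9.92) and, at low signal, -0.08.

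In the thin filament group all 14 genes had a log2 ratio below 0 (median -0.15), against 48.7% of all genes. None reached 1.5-fold, where 1.52% of all genes were lower and 2.32% higher. Lower past the probe-set SD were 4, against 16.3% of all genes. The lowest were *Nebl*, *Lmod3* and *Tmod1*. *Nebl*, or nebulette, the cardiac relative of nebulin, had 12.58 against 13.01, a log2 ratio of -0.43. *Lmod3*, a leiomodin that nucleates actin, had 9.13 against 9.53, a log2 ratio of -0.40, and *Tmod1*, which caps the pointed end of the filament, had 11.98 against 12.37, a log2 ratio of -0.39. *Lmod2*, the leiomodin of the heart, had -0.18 (8.85 against 9.02).

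The actins and the regulatory proteins were closer to 0. *Acta1*, skeletal alpha actin, which is also a gene of the fetal heart, had 10.62 against 10.84, a log2 ratio of -0.22, and *Actc1*, cardiac alpha actin, had 14.86 against 14.93, a log2 ratio of -0.07. Troponin C, which binds calcium, had -0.18 (*Tnnc1*, 14.16 against 14.34). The inhibitory subunits had -0.17 for the adult cardiac form *Tnni3* (13.84 against 14.00) and -0.14 for the neonatal slow skeletal form *Tnni1* (13.85 against 13.98). The tropomyosin-binding subunits *Tnnt2* and *Tnnt1* both had -0.02, although a second probe set of *Tnnt2* with strong signal had -0.25 (14.36 against 14.61), and the tropomyosins had -0.03 for *Tpm1* and -0.08 for *Tpm2*. None of the troponin or tropomyosin genes passed the probe-set SD at its strongest probe set.

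The group of titin and Z-disc genes held both the lowest log2 ratio after that of *Mylk3* and the only higher value past the probe-set SD. Of its 14 measured genes, 4 were lower and 1 was higher by that SD (median -0.10), against 16.3% and 18.5% of all genes. *Fhl2*, a LIM protein that binds titin, had 12.00 against 12.73, a log2 ratio of -0.72, or 1.65-fold lower. *Tcap*, or telethonin, which ties the ends of titin molecules together, had 8.69 against 9.35, a log2 ratio of -0.65. *Ldb3*, also called Cypher or ZASP, which holds alpha-actinin in the Z-disc, had 12.03 against 12.57, a log2 ratio of -0.54. *Ttn*, titin itself, had 12.42 against 12.66, a log2 ratio of -0.23. *Actn2*, the alpha-actinin that crosslinks actin at the Z-disc, had -0.14 (13.59 against 13.73), within the probe-set SD.

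The higher value was that of *Pdlim3*, also called ALP, another PDZ and LIM protein that binds alpha-actinin. It had 10.58 against 10.22, a log2 ratio of 0.36, or 1.28-fold higher. Others with values above 0 were *Des*, or desmin, the intermediate filament that joins Z-discs of neighbouring myofibrils, at 0.16 (13.17 against 13.00), *Cryab*, a small heat shock protein that protects desmin, at 0.07, and the actin-binding protein *Nexn*, or nexilin, at 0.05. *Smpx*, a small protein of striated muscle, had -0.15, the calcineurin-binding protein *Myoz2* -0.11, *Pdlim5*, or ENH, -0.09 and the Z-disc protein *Synpo2l* -0.06. These 7 genes were within the probe-set SD at their strongest probe set, but *Synpo2l* had -0.33 (8.31 against 8.64) at another, and the others of *Pdlim5* are given below.

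The last group held genes of energy supply, myosin folding and transcription. *Myocd*, or myocardin, the coactivator that works with serum response factor on muscle genes, had 7.82 against 8.42, a log2 ratio of -0.61, or 1.52-fold lower. *Ckmt2*, the creatine kinase of muscle mitochondria, had 11.22 against 11.45, a log2 ratio of -0.23. *Unc45b*, the chaperone that folds myosin heads, had -0.10. *Ckm*, the cytosolic creatine kinase that also sits at the M-band, had -0.02 (13.36 against 13.38), and *Mb*, myoglobin, had 0.03 (14.42 against 14.39).

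Of the 47 genes, 17 had several probe sets, and these did not always give the same size of difference. Over all 86 member probe sets none was 2-fold higher (0.412% of all probe sets with 1 gene) and 2 were 2-fold lower (0.269%). The second, beside that of *Mylk3*, belonged to *Ldb3*, with 7.64 against 8.75, a log2 ratio of -1.11. All 3 probe sets of *Ldb3* were lower (-1.11 to -0.54), as were all 3 of *Nebl* (-0.79 to -0.43) and both of *Myocd* (-0.73 and -0.61). The gene's value above was in each of them the smallest of these differences.

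*Ttn* showed the widest spread. Its 6 probe sets ran from -0.94 (9.55 against 10.48) through -0.84 (6.95 against 7.79) and -0.51 (11.50 against 12.01) to 0.01 (8.18 against 8.17). Only 1 of them had low signal, at 3.84 against 3.87. *Pdlim5* differed in direction between its 7 probe sets. Of them, 3 lay from 0.40 to 0.57, with 9.54 against 8.98 at the highest, and others at 0.11 and 0.22, while the pair with the strongest signal lay at -0.17 and -0.09. The gene codes for splice forms with and without the LIM domains, but which form each probe set reads was not determined here. *Tpm1*, which is also spliced into muscle and other forms, had values of 0.27 (11.32 against 11.06) and 0.33 at 2 of its 4 probe sets and -0.03 at the strongest. *Ckm* had -0.57 at its weaker probe set (5.89 against 6.46).

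**Figure D2:**
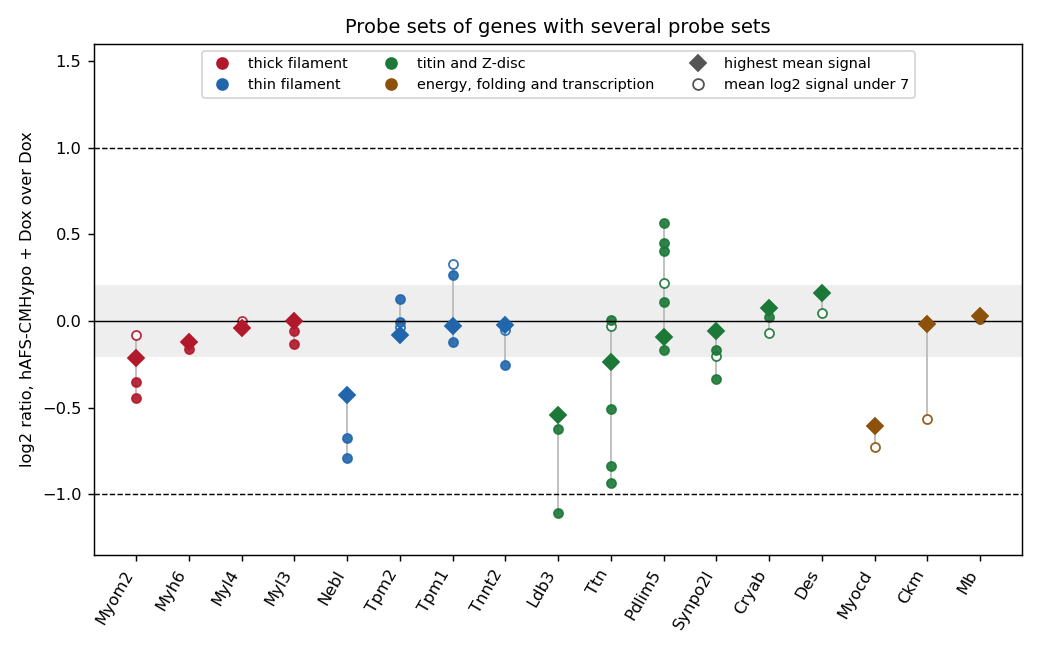
Log2 ratio (hAFS-CMHypo + Dox over Dox, vertical axis) of every probe set of the 17 genes with several probe sets, coloured by role. Diamonds mark the probe set with the highest mean, open points a mean log2 signal under 7, the grey band the SD of 0.20 and the dashed lines 2-fold; *Ttn* runs from -0.94 to 0.01 and *Pdlim5* from -0.17 to 0.57.

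The range of log2 ratios of the member probe sets was narrowest at the highest signal. The 12 member probe sets with a mean log2 signal of 14 or more lay between -0.25 and 0.03 (median -0.05), and 1 was lower past the probe-set SD. The 61 probe sets of all genes at that signal, these 12 among them, had an SD of 0.10. The 1.64% of them lower past the probe-set SD is the same *Tnnt2* probe set, so it is no separate share. Of the 21 member probe sets from 12 to 14, 9 were lower by that SD and none was higher (median -0.17), against 8.19% lower and 5.59% higher over the 733 probe sets of all genes. Of the 18 from 10 to 12, 7 were lower and 3 higher (median -0.14), against 15.1% and 14.1% over all. These are values of single probe sets, several of the same gene. Of the 19 from 7 to 10, 11 were lower and 2 higher (median -0.33), against 17.7% and 20.1% over all. The 16 below 7 had a median of -0.03, with 3 lower and 2 higher, against 17.4% and 18.4% over all. How far strong signals are compressed on these arrays was not tested, so the small values of the most abundant sarcomere transcripts are given as measured.

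**Figure D3:**
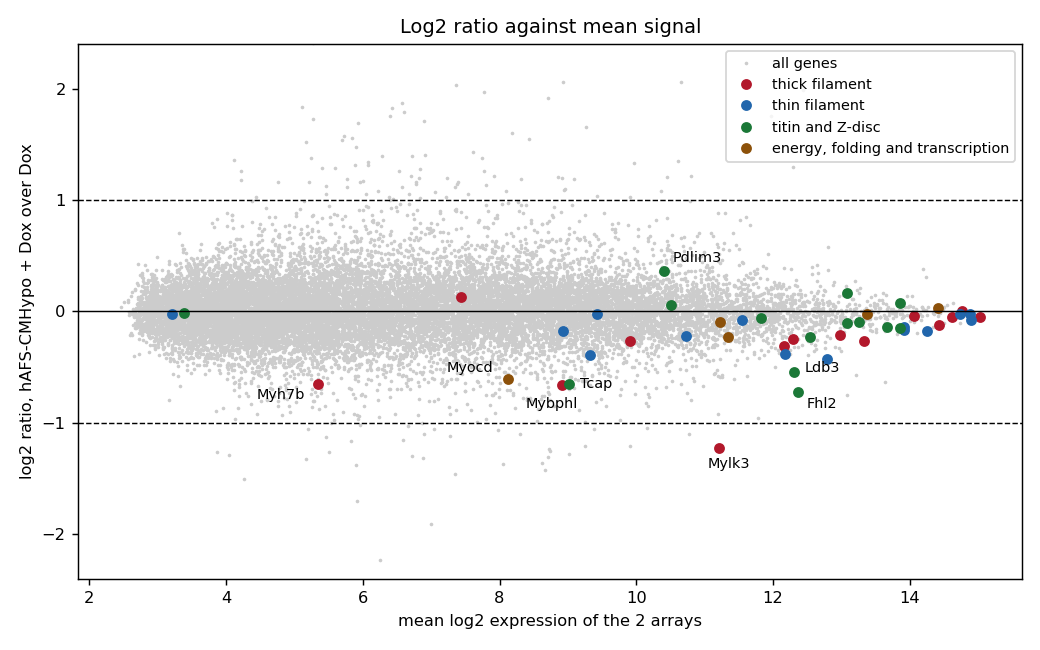
Log2 ratio (hAFS-CMHypo + Dox over Dox) against the mean log2 expression of the 2 arrays, for all 18193 genes (grey) and the sarcomere genes by role. Dashed lines mark 2-fold, and 7 genes, none of them a member, lie outside the plotted range; members lie mostly below 0, close to it at the highest signals, with *Mylk3* alone below the lower line.

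Heart muscle changes isoforms of the same protein between fetal, neonatal and adult life, so the log2 ratios were set against each other within 6 pairs. The adult form minus the fetal, slow skeletal or atrial form differed by 0.15 for *Myh6* minus *Myh7* and by 0.15 for *Actc1* minus *Acta1*. The remaining pairs differed by less, with 0.04 for *Myl3* minus *Myl4*, -0.03 for *Tnni3* minus *Tnni1*, and values within 0.01 of 0 for *Myl2* minus *Myl7* and *Tnnt2* minus *Tnnt1*. No pair exceeded the probe-set SD at the strongest probe sets, the only ones compared. In GRCm38.p6 the genes *Myh6* and *Myh7* are direct neighbours on chromosome 14, and *Tnnt1* and *Tnni3* on chromosome 7. Neighbours had log2 ratios of -0.12 and -0.27 in the first case and of -0.02 and -0.17 in the second. The heavy chains *Myh6* and *Myh7* are near-identical in sequence, as are *Actc1* and *Acta1*, and binding of one transcript to probes for the other was not tested.

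The 3 myosin heavy chain genes of the list each carry a microRNA in the same orientation. The host genes had log2 ratios of -0.12 for *Myh6*, -0.27 for *Myh7* and -0.65 for *Myh7b*. Those of *Myh6* and *Myh7* differed by less than the probe-set SD. The only probe set of *Myh7b* lay near the median of all values (5.10), at 5.02 with hAFS-CMHypo + Dox and 5.68 with Dox. The arrays measured the host transcripts, not the mature microRNAs. Sequences are from RefSeq (GRCm38.p6), 5′ to 3′, with the seed (bases 2 to 8) in capitals.
mmu-miR-208a-3p (chr14:54949072-54949093, minus strand): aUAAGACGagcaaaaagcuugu
mmu-miR-208b-3p (chr14:54975710-54975731, minus strand): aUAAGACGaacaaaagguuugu
mmu-miR-499-5p (chr2:155622893-155622913, plus strand): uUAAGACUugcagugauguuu
The first lies within *Myh6*, the second within *Myh7* and the last within *Myh7b*. The pair from the neighbouring genes share the seed UAAGACG, and the one from *Myh7b* has UAAGACU.

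Promoters of the members were searched for motifs known from muscle genes, in RefSeq windows (GRCm38.p6) from 250 bases before to 50 bases after each annotated start. There were 53 windows for 39 of the 47 genes, and windows of the same gene can overlap. Both strands were searched for a motif near the start called the TATA box, with the letters TATAAA. The M-CAT element, which TEAD factors bind, was searched as CATTCC, and the site of the GATA factors as AGATAA. The CArG box, which serum response factor binds, and the MEF2 site were searched by their usual consensus. A CArG box was found in 10 windows (18.9%), against 1.63% of the 32851 windows of all genes. Overlapping windows of *Ldb3* hold the same box. The shares were 11.3% against 3.19% for the MEF2 site, 28.3% against 14.7% for M-CAT, 18.9% against 11.2% for the GATA site and 15.1% against 13.6% for the TATA box. A match is a stretch of letters and not a shown binding site.

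Genes with a CArG box spanned much of the range of the members. The 8 were *Fhl2* (-0.72), *Ldb3* (-0.54), *Nebl* (-0.43), *Myom1* (-0.31), *Acta1* (-0.22), *Actc1* (-0.07), *Myl7* (-0.05) and *Myl3* (0.00), with a median log2 ratio of -0.27, against -0.12 for the 31 genes with a window and no CArG box. The 9 genes with a GATA site had a median of -0.43, against -0.10 for 30 without. Those with a site included *Mylk3*, *Fhl2*, *Mybphl* and *Myh7b*, but also *Myl2*, *Smpx* and *Tnnt2*, which were within the probe-set SD. Both *Mylk3* (-1.23) and *Smpx* (-0.15) had 2 sites in the same window. Medians with and without the motif were -0.23 and -0.13 for the MEF2 site, -0.18 and -0.12 for M-CAT, and -0.11 and -0.14 for the TATA box, where genes with the motif lay closer to 0. A gene can hold several motifs, and none of these differences was tested. The bases before the start are printed for *Mylk3*, *Fhl2* and *Ldb3*, which were among the lowest, for *Myom1*, for *Actc1* and *Myl3*, which carry a CArG box and lay near 0, and for *Pdlim3*, the highest. Each line gives 210 bases 5′ to 3′ on the strand of the gene up to its most upstream annotated start, with matches to the listed motifs in capitals.
Mylk3 (chr8:85381042-85381251, minus strand): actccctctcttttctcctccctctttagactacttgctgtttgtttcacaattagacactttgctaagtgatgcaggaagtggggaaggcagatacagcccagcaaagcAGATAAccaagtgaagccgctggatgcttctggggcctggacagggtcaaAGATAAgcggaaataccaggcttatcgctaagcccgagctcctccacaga
Fhl2 (chr1:43196762-43196971, minus strand): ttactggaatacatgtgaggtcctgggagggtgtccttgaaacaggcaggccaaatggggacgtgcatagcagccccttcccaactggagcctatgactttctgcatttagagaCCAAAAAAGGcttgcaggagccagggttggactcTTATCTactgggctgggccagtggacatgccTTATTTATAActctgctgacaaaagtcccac
Ldb3 (chr14:34588682-34588891, minus strand): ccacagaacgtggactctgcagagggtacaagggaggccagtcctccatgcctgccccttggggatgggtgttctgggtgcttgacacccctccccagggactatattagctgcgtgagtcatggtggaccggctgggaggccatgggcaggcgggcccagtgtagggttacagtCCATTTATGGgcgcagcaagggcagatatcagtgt
Myom1 (chr17:71019347-71019556, plus strand): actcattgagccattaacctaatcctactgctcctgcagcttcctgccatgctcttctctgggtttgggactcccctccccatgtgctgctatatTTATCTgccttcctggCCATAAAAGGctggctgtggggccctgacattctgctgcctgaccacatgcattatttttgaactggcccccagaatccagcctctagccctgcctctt
Actc1 (chr2:114052876-114053085, minus strand): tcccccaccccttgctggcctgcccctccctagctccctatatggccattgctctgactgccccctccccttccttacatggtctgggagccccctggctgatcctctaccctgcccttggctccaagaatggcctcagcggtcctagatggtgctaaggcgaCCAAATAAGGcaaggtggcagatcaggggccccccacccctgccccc
Myl3 (chr9:110763468-110763677, plus strand): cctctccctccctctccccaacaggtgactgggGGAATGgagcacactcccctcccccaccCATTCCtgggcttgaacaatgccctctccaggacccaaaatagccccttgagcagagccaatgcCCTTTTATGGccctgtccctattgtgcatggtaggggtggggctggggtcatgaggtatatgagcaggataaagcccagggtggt
Pdlim3 (chr8:45885277-45885486, plus strand): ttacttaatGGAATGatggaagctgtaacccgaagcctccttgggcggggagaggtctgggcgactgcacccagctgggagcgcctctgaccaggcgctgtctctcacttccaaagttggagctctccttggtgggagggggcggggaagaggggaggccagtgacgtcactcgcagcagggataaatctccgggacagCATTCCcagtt
The capitals are a pair of GATA sites 100 and 50 bases before the start in *Mylk3*. In *Fhl2* they are a CArG box at 96, a GATA site at 62, and a MEF2 site at 31 that overlaps a TATA box match on the opposite strand at 28. *Ldb3* and *Actc1* have a CArG box at 35 and 47, *Myom1* has a GATA site at 115 and a CArG box at 99, *Myl3* has M-CAT elements at 177 and 149 and a CArG box at 85, and *Pdlim3* has M-CAT elements at 201 and 11.

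Other genes of the sarcomere, which the list does not hold, were also measured. Of 41 measured genes of 44 listed, 9 were higher and 9 lower past the probe-set SD, where 18.5% of all genes were higher and 16.3% lower. None reached 2-fold, where 0.506% of all genes were higher and 0.214% lower, and the median log2 ratio was -0.06. The highest was *Flnc*, or filamin C, which crosslinks actin at the Z-disc, at 0.82 (11.93 against 11.11). The lowest with signal at or above the median of all values was *Fhod3*, a formin needed to build heart sarcomeres, at -0.65 (10.33 against 10.98). Cardiomyocyte markers outside the sarcomere had a median like that of the members, at -0.14 over 12 genes, with 4 lower and none higher past the probe-set SD. They were led by *Corin*, the protease that activates atrial natriuretic peptide, at -1.12 (6.71 against 7.83), and *Pln*, or phospholamban, which holds back the calcium pump, at -0.57 (12.93 against 13.50).

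**Figure D4:**
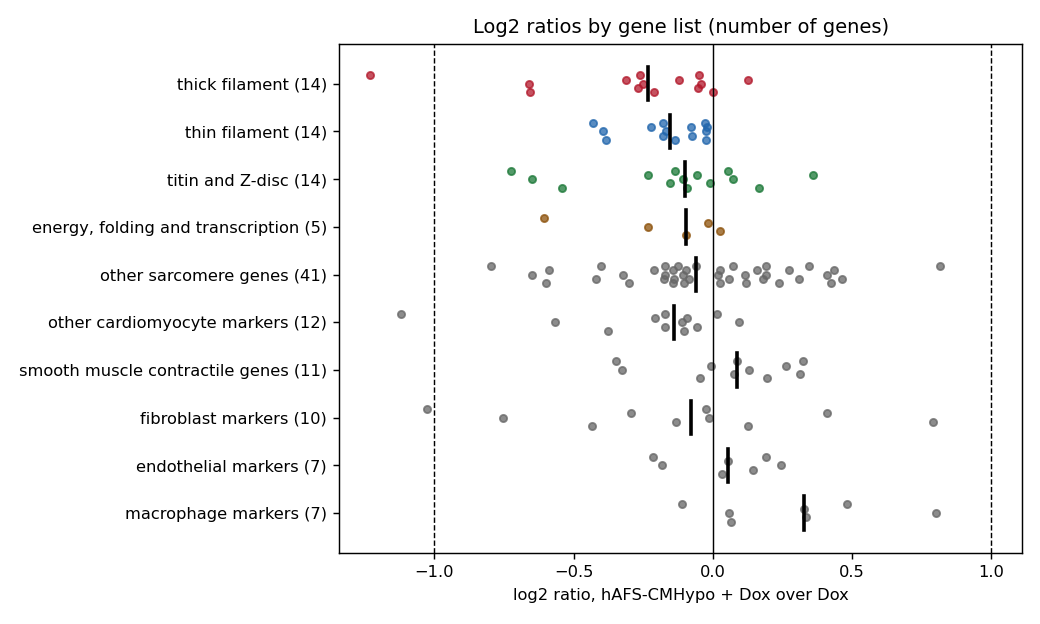
Log2 ratios (hAFS-CMHypo + Dox over Dox, horizontal axis) of single genes by list, with the number of measured genes in brackets. Coloured points are the sarcomere genes by role, grey points genes outside the list, black bars medians and dashed lines 2-fold; the 4 groups of sarcomere genes have medians from -0.23 to -0.10 and macrophage markers the highest, at 0.33.

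Since these are bulk cultures, fewer cardiomyocytes and less RNA per cardiomyocyte cannot be told apart. Markers of the other cells that such a culture can hold were measured on the same arrays, and their counts past the probe-set SD stand against the same 18.5% higher and 16.3% lower over all genes. Fibroblast markers had a mean log2 level of 10.23 over 10 genes with hAFS-CMHypo + Dox and 10.37 with Dox, with 4 lower and 2 higher past the probe-set SD. *Tcf21* had -1.03 (0.18 at its other probe set) and *Pdgfra* 0.79 (as low as -0.05 among 3 probe sets). Smooth muscle genes had 8.81 and 8.75 over 11 genes, with 3 higher and 2 lower, and the largest differences in *Mylk* (-0.35, up to 0.32 among its probe sets) and *Myl9* (-0.33). Endothelial markers had 7.41 and 7.37 over 7 genes, with 1 higher and 1 lower. The higher was *Vwf* at 0.24, named after its value was seen and below the median of all values on both arrays, and the lower was *Tek* at -0.22, while *Tie1* had 0.19, within the probe-set SD. Macrophage markers had 7.79 and 7.51 over 7 genes, with 4 higher and none lower, led by *Cd14* at 0.80 and *Ptprc* at 0.48 (-0.09 at its other probe set). The erythroid genes *Hba-a1* and *Alas2* were below the median of all values on both arrays. The part of these cells in the values of the sarcomere genes was not tested.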

How the data were processed

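Gene expression of mNVCM was measured with 1 Affymetrix array per condition. The deposited log2 values, 1 for each of 45101 probe sets, were made by the authors using RMA, also named in the submitters' processing notes, and quantile normalization. The software and its version were not given in the sources used here. Values ran from 2.37 to 15.05, and this range was the basis for reading them as log2. Genes were named by the platform annotation, updated by Entrez ID with RefSeq genes of GRCm38.p6 (34741 of 34945 probe sets with 1 gene matched). The 64 control probe sets and those with several genes (932) or none (9211) were left out.

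From these values the log2 ratio was computed per probe set and per gene, taking the strongest probe set by mean. The threshold was 2-fold, which the paper states. The probe-set SD was pooled over genes with several probe sets whose mean was at or above the median of all values. The members and lists were chosen with earlier results of these data known. Every measured member is named. From each other list the text names the 2 genes with the largest absolute log2 ratios, and any gene past 2-fold. The 2 were taken among genes whose higher array was at or above that median. Named beyond this rule were *Vwf*, *Hba-a1* and *Alas2*, which lay below that median on both arrays. With 1 array per condition no test across arrays was possible, and precision is limited by the number of arrays. The counting and the lowess step were tested on simulated data. Tried as alternatives were a 1.5-fold or 3-fold threshold, leaving out genes under the median or the 25th percentile of all values, centring, lowess correction on mean expression (span 0.3), only probe sets of the plain _at type, the mean of all probe sets, and the probe set with the largest change. Software was pandas 2.3.3 and numpy 2.4.6 under Python 3.11.15, with statsmodels 0.14.6 for lowess and matplotlib 3.10.9 for plots.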

Additional observations from a re-analysis of the deposited data

How the results depend on the processing

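The median log2 ratio of the members stayed below 0 under every alternative tried, from -0.17 with the probe set of largest change to -0.11 with the lowess correction, and the count of members lower past the probe-set SD ranged from 15 of 41 genes, with only the plain _at probe sets, to 21 with the most changed probe set. The shares were 36.6% and 44.7% of members, against 16.2% and 23.9% of all genes in the same settings, and 38.3% against 16.3% as reported above. The count of members 2-fold lower was 6 at a threshold of 1.5-fold, 0 at 3-fold, and 2 where each gene took its most changed probe set, when *Ldb3* joined *Mylk3*. None was 1.5-fold, 2-fold or 3-fold higher in these alternatives. The count of members higher by more than that SD was 2 with only the plain _at probe sets, 2 with the mean of all probe sets and 3 with the most changed probe set. Leaving *Pdlim3* aside, these were *Tpm1* (0.27, and 0.33 at the largest change) and *Pdlim5* (0.21 with the mean, 0.57 at the largest change). Shares of all genes were not counted for these higher counts. They were also not counted for 3-fold lower, or for 2-fold lower at the most changed probe set. With that choice the share of all genes lower past the probe-set SD also rose, from 16.3% to 23.9%. With only the plain _at probe sets *Ttn* had -0.94 and *Synpo2l* -0.33, and at the most changed probe set *Tnnt2* had -0.25 and *Myom2* -0.44. The centring shifted the ratios by 0.01. No paired analysis was possible because each condition has 1 array, and none could be left out. That same limit holds for every value: a difference of these sizes between replicate cultures was not measured.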
